A study of Mus musculus with 21 samples.

Results

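The voltage-gated sodium and calcium channel genes are the genes that build the channels through which a cell turns a change of membrane voltage into a sodium or calcium current. They were taken here by symbol, as every protein-coding mouse gene in the count files whose symbol starts with Scn, a number and a or b, or with Cacna, Cacnb or Cacng. The rule gave 40 of 21551 protein-coding genes. They are 10 pore-forming (alpha1), 4 alpha2delta, 4 beta and 8 gamma subunit genes of calcium channels, and 10 pore-forming (alpha) and 4 beta subunit genes of sodium channels. Expression was measured by RNA sequencing of sorted epithelial cells in 21 libraries. The 6 groups were tuft cells of small intestine (n = 3), colon (n = 4), gall bladder (n = 3), thymus (n = 4) and trachea (n = 4), and non-tuft cells of small intestine (n = 3). Every mouse was an untreated C57BL6.Il25(Flare25/Flare25) animal, in which the Il25 gene carries a fluorescent reporter, so the non-tuft cells carried the reporter allele too. Tuft cells were the reporter-positive and non-tuft cells the reporter-negative cells among live CD45-negative, EPCAM-positive cells. The donors were 12-week-old males, 1 mouse per library, except that each trachea library pooled 4 mice of 12 to 16 weeks and pools 3 and 4 were female. Non-tuft cells were sorted from small intestine alone.

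A voltage-gated calcium channel has an alpha1 subunit that forms the pore, a cytoplasmic beta subunit and an extracellular alpha2delta subunit. The beta and alpha2delta subunits bring the pore to the membrane and tune its gating, and several gamma proteins act mainly as partners of glutamate receptors. A voltage-gated sodium channel has an alpha subunit that forms the pore and beta subunits that modify gating and adhere to other cells. Tuft cells are chemosensory cells in which receptor signalling releases calcium from stores and opens Trpm5, a cation channel that depolarises the membrane, the kind of signal to which voltage-gated channels respond.

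The promoters of 5 genes are shown because they belong to the genes on which the results turn. Cacna2d2, Cacnb1 and Cacnb4 were called higher in all 5 tuft tissues than in non-tuft cells, Scn8a was highest in gall bladder and Scn7a in thymus tuft cells. Each is the 300-base window from 250 bases before to 50 after the outermost start that RefSeq gives the gene on GRCm38.p6, printed 5′ to 3′ on the gene's strand. Capitals mark GC boxes, GGGCGG or its reverse CCGCCC, and overlapping sites were both counted.
Cacna2d2 (chr9:107399630-107399929, + strand): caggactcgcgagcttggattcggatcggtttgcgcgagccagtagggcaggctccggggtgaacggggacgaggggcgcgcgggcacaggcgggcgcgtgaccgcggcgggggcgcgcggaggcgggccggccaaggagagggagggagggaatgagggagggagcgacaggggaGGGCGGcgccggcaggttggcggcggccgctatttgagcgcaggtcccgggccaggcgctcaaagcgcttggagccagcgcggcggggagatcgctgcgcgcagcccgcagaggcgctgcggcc
Cacnb1 (chr11:98022578-98022877, - strand): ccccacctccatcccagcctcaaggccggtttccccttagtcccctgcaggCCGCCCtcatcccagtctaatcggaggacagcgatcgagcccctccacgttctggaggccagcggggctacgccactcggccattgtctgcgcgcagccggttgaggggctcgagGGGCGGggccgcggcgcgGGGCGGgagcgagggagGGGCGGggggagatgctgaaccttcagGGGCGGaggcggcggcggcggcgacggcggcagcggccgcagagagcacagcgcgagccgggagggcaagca
Cacnb4 (chr2:52676094-52676393, - strand): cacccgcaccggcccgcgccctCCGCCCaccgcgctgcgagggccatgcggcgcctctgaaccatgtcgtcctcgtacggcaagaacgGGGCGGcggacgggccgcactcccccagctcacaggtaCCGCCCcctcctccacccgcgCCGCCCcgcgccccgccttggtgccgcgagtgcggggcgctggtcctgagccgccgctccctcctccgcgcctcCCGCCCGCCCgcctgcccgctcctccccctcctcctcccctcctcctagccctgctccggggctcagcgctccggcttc
Scn8a (chr15:100870395-100870694, + strand): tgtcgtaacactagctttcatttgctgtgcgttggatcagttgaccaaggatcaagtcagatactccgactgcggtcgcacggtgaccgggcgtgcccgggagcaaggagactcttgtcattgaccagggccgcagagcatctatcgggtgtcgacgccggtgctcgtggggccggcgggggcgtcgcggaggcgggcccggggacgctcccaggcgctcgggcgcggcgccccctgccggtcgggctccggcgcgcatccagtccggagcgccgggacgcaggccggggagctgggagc
Scn7a (chr2:66784861-66785160, - strand): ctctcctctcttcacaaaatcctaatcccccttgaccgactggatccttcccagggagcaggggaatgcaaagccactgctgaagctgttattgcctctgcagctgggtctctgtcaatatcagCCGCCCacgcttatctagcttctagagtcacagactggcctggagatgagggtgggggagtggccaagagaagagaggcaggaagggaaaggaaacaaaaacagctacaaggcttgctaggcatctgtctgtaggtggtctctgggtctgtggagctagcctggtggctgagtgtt
The Cacna2d2, Cacnb1 and Cacnb4 windows held 1, 5 and 6 GC boxes, Scn8a none and Scn7a 1. CpG dinucleotides numbered 43, 34, 40 and 38 in Cacna2d2, Cacnb1, Cacnb4 and Scn8a and 3 in Scn7a, against a median of 7 over all windows. A GC box was in 35.7% of all windows of the RefSeq table used, and in 16 of the 41 windows that 30 of the 40 channel genes had. The octamer ATGCAAAT, searched on both strands, was in 1.74% of all windows and in 0 of the 41 channel windows. The TATAAA motif was in 13.6% of all windows and in 2 of the 41. No transcription start was measured here, so these are descriptions of the windows.

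Summed counts ran from 25739248 to 73574745 per library, while sorted cells ran from 130 to 453 in trachea up to 52000 to 57000 in the non-tuft group. The 20 tuft core markers, Pou2f3, Trpm5 and Dclk1 among them, summed to 31377 to 40853 CPM in small intestine tuft and 27831 to 31540 in gall bladder tuft libraries. They summed to 6462 to 8287 in colon, 8905 to 10320 in thymus, 15498 to 23975 in trachea tuft and 311 to 552 in non-tuft libraries. CPM is the number of counts scaled to a common library size by TMM. Other cell types' markers differed between groups as well. Medullary thymic epithelium markers summed to 6334 to 8386 CPM in thymus tuft libraries and to at most 773 in any other. Airway club, ciliated and basal markers summed to 24165 to 109540 CPM in trachea tuft libraries, the highest in pool 1. In bulk RNA, fewer cells of a type and less RNA per cell cannot be told apart.

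Of the 40 channel genes, 21 reached a mean of 5 CPM in some group, 6 reached between 1 and 5 CPM, and 13 stayed under 1 CPM in every group. At a mean of 1 CPM or more, 10 of the 40 were found in small intestine, 14 in colon, 10 in gall bladder, 27 in thymus and 18 in trachea tuft cells, and 13 in non-tuft cells. In thymus tuft cells 67.5% of the channel genes reached that level, near the 65.5% of all protein-coding genes that did there. In small intestine and gall bladder tuft cells 25% of the channel genes did, against 53.7% and 53.0% of protein-coding genes. The channel gene shares were 35% in colon, 45% in trachea and 32.5% in non-tuft cells, against 55.2%, 55.3% and 55.3% of protein-coding genes. Thymus tuft cells were the group with the most channel genes at that level, and also with the most protein-coding genes.

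**Figure D1:**
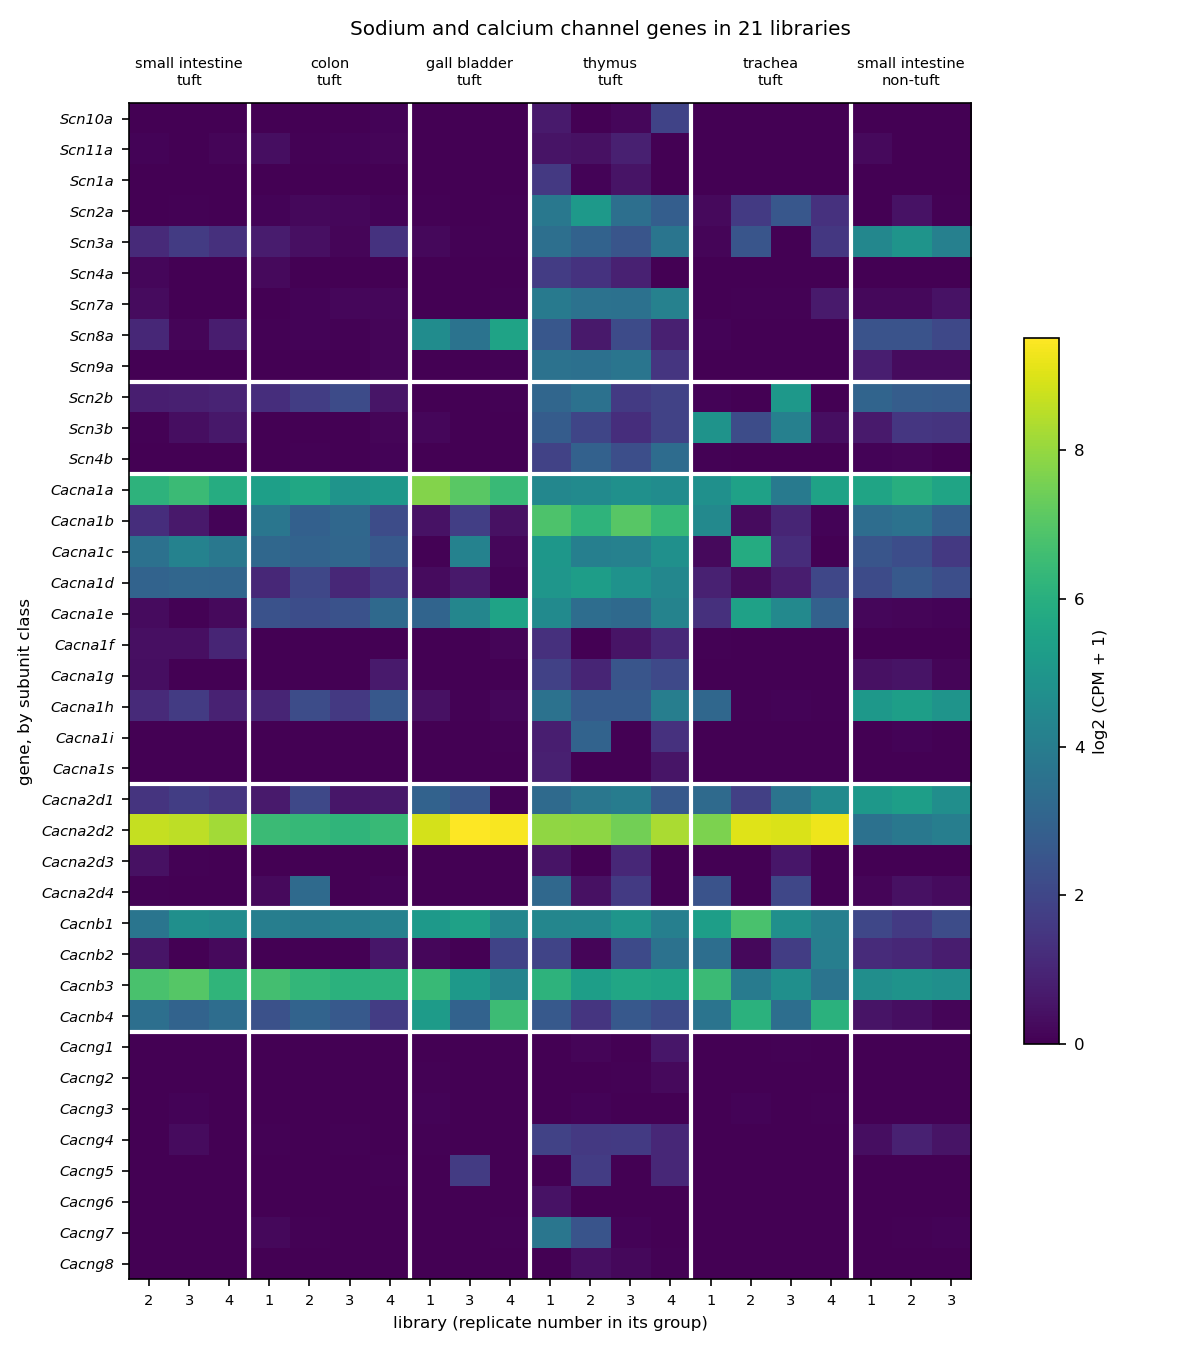
Level of the channel genes reported here (rows, by subunit class, as log2 of CPM + 1) in each of the 21 libraries (columns, by group, numbered by replicate). Cacna2d2 is bright in all 18 tuft libraries, Scn8a in the 3 gall bladder libraries, and thymus shows the widest set of genes, as it did over all protein-coding genes.

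Within the small intestine, tuft cells had more RNA of the alpha2delta gene Cacna2d2 and of 3 of the 4 beta subunit genes than non-tuft cells, and less of every sodium channel gene that was called. Calls required a change of 2-fold or more and an adjusted p below 0.05 in edgeR's quasi-likelihood test, with Benjamini-Hochberg adjustment over all genes tested. Of 40 channel genes, 19 had enough counts to be tested. Cacna2d2, Cacnb1, Cacnb3, Cacnb4, Cacna1c and Cacna1f were called higher (6), where 13% of 16063 genes were. Cacna1b, Cacna1h, Cacna2d1, Scn3a, Scn8a, Scn9a and Scn2b were called lower (7), where 13.9% were. The median log2 fold change of the 19 was -2.07, against -0.03 over all genes tested. Some of the 19 passed the count filter through 1 group alone. Scn9a had no count in tuft libraries, and Cacna1f had 1 in non-tuft libraries. The counts and the median therefore do not measure the family. The fit was of the 6 small intestine libraries. When all 21 libraries set the spread, 3 were called higher (Cacna2d2, Cacnb1 and Cacnb4) and 2 lower (Cacna2d1 and Scn9a).

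Cacna2d2 (ENSMUSG00000010066, GRCm38 chromosome 9, 107399612 to 107529343) encodes an alpha2delta subunit that raises channel density at the surface and is bound by gabapentin. It was at 412, 378 and 290.5 CPM in the small intestine tuft libraries, against 10.6, 13.0 and 15.9 CPM in the non-tuft libraries. The groups lay far apart, with a log2 fold change of 4.83 ± 0.21 (SE) and adjusted p = 1.04e-07. Its relative Cacna2d1 (ENSMUSG00000040118, chromosome 5, 15934691 to 16374511) went the other way, at 1.71, 2.35 and 1.74 CPM in tuft and 32.7, 39.4 and 25.0 CPM in non-tuft libraries. Every tuft library was below every non-tuft library, and the log2 fold change was -4.00 ± 0.26 (SE, adjusted p = 1.66e-06). Per kilobase of exon, Cacna2d2 made up 99.6% ± 0.0296 of alpha2delta RNA in tuft cells and 38.9% ± 9.17 in non-tuft cells (SD, n = 3 each), where Cacna2d1 held 60.5% ± 9.19.

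The beta subunits, which bind the pore inside the cell, were also higher. Cacnb3 (ENSMUSG00000003352, chromosome 15, 98630840 to 98644529) was at 108, 127 and 73.5 CPM in tuft libraries, against 25.2, 28.6 and 25.9 CPM in non-tuft libraries. Cacnb1 (ENSMUSG00000020882, chromosome 11, 98001508 to 98023034), known as the beta subunit of skeletal muscle, was at 11.9, 25.8 and 23.1 CPM, against 3.11, 2.08 and 3.59 CPM in non-tuft libraries. Cacnb4 (ENSMUSG00000017412, chromosome 2, 52428320 to 52676831), a beta subunit of brain, was at 10.2, 7.20 and 9.51 CPM, against 0.431, 0.286 and 0.0875 CPM in non-tuft libraries. No tuft library overlapped a non-tuft library for any of the 3 genes. Their log2 fold changes were 2.01 ± 0.20 for Cacnb3, 2.85 ± 0.35 for Cacnb1 and 5.13 ± 0.54 for Cacnb4 (SE), with adjusted p of 2.87e-05, 0.000124 and 4.88e-05. The fourth, Cacnb2, averaged 0.224 CPM in tuft cells, against 0.99 CPM in non-tuft cells, and was not called (adjusted p = 0.0908).

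Among the pores, Cacna1a (ENSMUSG00000034656, chromosome 8, 84388440 to 84640246), the P/Q-type channel of nerve terminals, was at 69.6, 88.0 and 58.3 CPM in tuft and 45.8, 61.8 and 46.5 CPM in non-tuft libraries. These groups overlapped, and the log2 fold change of 0.55 ± 0.19 (SE, adjusted p = 0.0369) stayed under the size set for a call. Cacna1c (ENSMUSG00000051331, chromosome 6, 118587240 to 119196418), the L-type channel of heart and smooth muscle, was called higher, at 13.7 ± 3.40 CPM in tuft cells, against 3.48 ± 1.36 CPM in non-tuft cells (SD, n = 3 each; log2 fold change 2.04 ± 0.35, adjusted p = 0.00109). Cacna1f, the L-type channel of photoreceptors, was called higher at a trace level of 0.316, 0.30 and 1.00 CPM in tuft libraries, where 1 read in all was counted over the 3 non-tuft libraries. Cacna1d, another L-type pore, averaged 7.53 ± 0.332 CPM in tuft cells, against 4.28 ± 0.959 CPM in non-tuft cells and was not called (log2 fold change 0.88 ± 0.28). Its exons overlap those of Chdh on the other strand over 4.67% of their length, and Chdh averaged 859 CPM in tuft cells, against 152 CPM in non-tuft cells.

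The T-type pore Cacna1h (ENSMUSG00000024112, chromosome 17, 25374285 to 25433783) was lower in tuft cells, at 1.17, 2.15 and 0.856 CPM, against 32.5, 39.7 and 29.1 CPM in non-tuft cells. The N-type pore Cacna1b was at 1.35, 0.575 and 0.0733 CPM in tuft and 9.49, 11.1 and 6.49 CPM in non-tuft libraries. Both genes were lower in every tuft library than in any non-tuft library, with log2 fold changes of -4.54 ± 0.34 (adjusted p = 4.9e-06) and -3.69 ± 0.72 (adjusted p = 0.00233). Tpsg1, which shares 1.62% of Cacna1h's exon length on the other strand, was at 1.68 ± 1.05 CPM in tuft cells, against 47.0 ± 5.09 CPM in non-tuft cells (SD, n = 3 each). The sources used here do not give whether counting used strand, so reads of such pairs could not be told apart.

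Of the sodium channel genes, Scn3a (ENSMUSG00000057182, chromosome 2, 65457118 to 65567627), a pore of embryonic brain and endocrine cells, stood out in non-tuft cells. It was at 1.17, 2.13 and 1.52 CPM in tuft libraries, against 20.0, 29.2 and 16.6 CPM in non-tuft libraries, with no overlap (log2 fold change -3.71 ± 0.33, adjusted p = 1.37e-05). It made up 83% ± 3.3 of sodium alpha RNA per kilobase in non-tuft cells. Scn8a, a pore of axon initial segments, averaged 0.622 CPM in tuft cells, against 3.99 CPM in non-tuft cells (log2 fold change -2.62 ± 0.70, adjusted p = 0.0125), and the beta subunit Scn2b averaged 0.801 and 6.41 CPM (log2 fold change -2.94 ± 0.37, adjusted p = 0.000145). Scn9a, a pore of pain-sensing neurons, had no count in the 3 tuft libraries and 0.737, 0.204 and 0.204 CPM in the non-tuft libraries (adjusted p = 0.00772).

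All 21 enteroendocrine markers tested, among them Chga and Neurod1, were called lower in tuft than in non-tuft cells. Their summed level was 532 to 1333 CPM in tuft and 11347 to 16128 CPM in non-tuft libraries, so tuft cells held 7.09% of the non-tuft level. The tuft level was 7.32% of the non-tuft level for Scn3a, 7.39% for Cacna1b, 5.97% for Cacna2d1 and 4.13% for Cacna1h. It was 12.5% for Scn2b and 15.6% for Scn8a. Goblet and Paneth markers were lower in tuft cells as well, with 8 of 8 and 7 of 7 called, and their sums in tuft cells were 2.24% and 2.43% of the non-tuft level. Enterocyte markers did not share this fall. Of 12 tested, 2 (Fabp1 and Vil1) were called higher and 0 lower. The enterocyte sum ran from 28959 to 34861 CPM over the tuft libraries. Over the non-tuft libraries it ran from 16210 to 18032 CPM, so the tuft mean was 185% of the non-tuft mean. The part of enteroendocrine, goblet, Paneth or enterocyte cells in the channel gene differences was not tested.

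**Figure D2:**
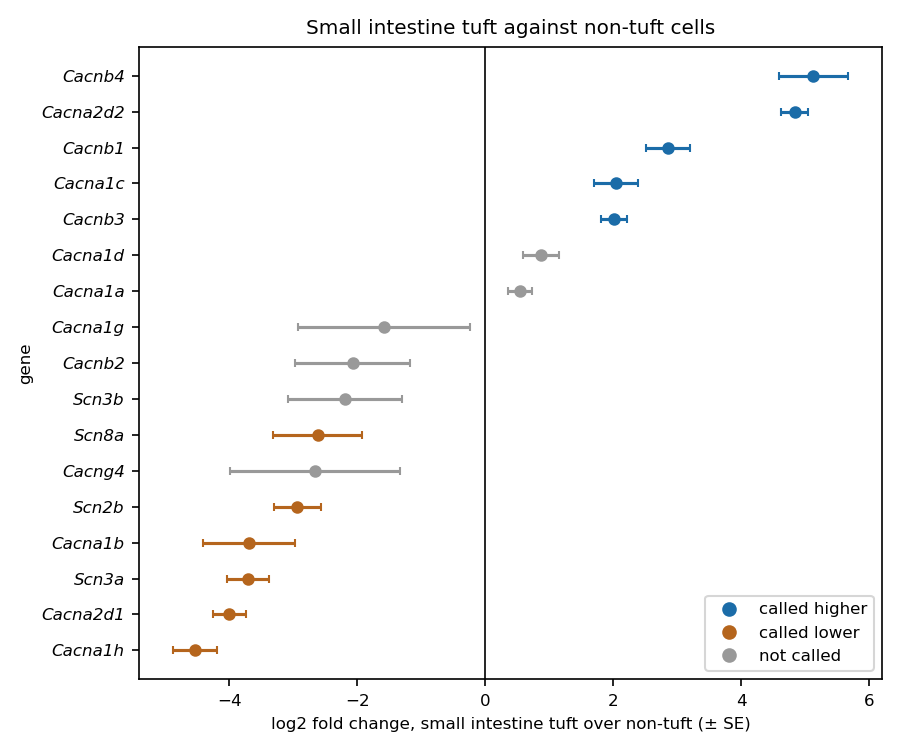
Log2 fold change ± SE of small intestine tuft over non-tuft cells for the tested channel genes with more than 3 counts in each group (Cacna1f and Scn9a are left out). Cacnb4 and Cacna2d2 lie at 5.13 and 4.83, and Cacna1h at -4.54 lies at the other end.

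Cacna2d2, Cacnb1 and Cacnb4 were the 3 channel genes called higher in each of the 5 tuft tissues than in small intestine non-tuft cells, in a fit of 21 libraries in which 31 channel genes were tested. Over all genes, 1.31% of 20335 met the same rule. In the single contrasts, 3 channel genes were called higher and 2 lower in small intestine tuft cells, where 3.86% and 2.65% of all genes were, and 4 and 4 in colon, where 4.4% and 3.27% were. The counts were 5 and 7 in gall bladder (12.4% and 13.5% of all genes), 13 and 1 in thymus (17.2% and 10.3%) and 5 and 6 in trachea (14% and 17.2%). The 5 contrasts share the 3 non-tuft libraries, and outside the small intestine they hold the organ as well as the cell type. Cacnb3 was not called in any of the 5, with a log2 fold change of 1.95 ± 0.61 in small intestine (adjusted p = 0.0589). Cacna2d2 kept the status with any of the 21 libraries left out, Cacnb1 lost it without non-tuft replicate 2 (2 genes met the rule) and Cacnb4 without non-tuft replicate 3 (2 genes again).

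Cacna2d2 was at 87.7, 81.0, 73.0 and 83.4 CPM in colon, 480.3, 727 and 674 CPM in gall bladder, 244, 238, 178 and 315 CPM in thymus, and 198, 529.5, 506 and 612 CPM in trachea tuft libraries. The highest non-tuft library was at 15.9 CPM, below every one of the 18 tuft libraries. The log2 fold changes against non-tuft cells were 4.77 ± 0.37 in small intestine, 2.63 ± 0.32 in colon, 5.57 ± 0.38 in gall bladder, 4.21 ± 0.35 in thymus and 5.13 ± 0.37 in trachea (SE), with adjusted p between 6.93e-10 and 7.45e-06. Between tuft tissues, it was called lower in colon than in the other 4 (log2 fold change -2.35 ± 0.27, adjusted p = 3.68e-06) and higher in gall bladder (1.35 ± 0.24, adjusted p = 0.000398). As a share of the summed tuft core markers, Cacna2d2 was 0.998% ± 0.067 in small intestine and 1.12% ± 0.138 in colon (SD, n = 3 and 4). The same share was 2.13% ± 0.555 in gall bladder, 2.48% ± 0.563 in thymus and 2.24% ± 0.771 in trachea, and 3.36% ± 0.721 in non-tuft cells, whose tuft core sum was 311 to 552 CPM. The tuft core sum itself was lowest in colon, where 15 of its 20 markers were called lower. Per kilobase, Cacna2d2 made up 96 to 99.6% of mean alpha2delta RNA in every tuft group.

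Cacnb1 averaged 15.8 ± 1.14 CPM in colon, 32.1 ± 11.4 in gall bladder, 21.7 ± 6.03 in thymus and 47.2 ± 41.6 in trachea tuft cells (SD, n = 4, 3, 4 and 4). Its log2 fold changes against non-tuft cells ran from 2.43 ± 0.58 in colon to 4.01 ± 0.62 in trachea. Cacnb4 differed more between tissues. It was at 36.2, 6.91 and 90.7 CPM in gall bladder and 11.7, 66.3, 9.77 and 66.4 CPM in trachea, but at 2.20 to 7.20 CPM in colon and 1.75 to 5.28 CPM in thymus libraries. The gall bladder and trachea values spread widely between replicates, and the lowest gall bladder library overlapped the colon range. A430018G15Rik overlaps 16.0% of Cacnb4's exon length on the other strand and averaged 0.172 to 0.533 CPM in the groups other than trachea, where it averaged 4.05 CPM. Per kilobase, Cacnb3 led the beta subunits in small intestine tuft (81.8%), colon tuft (82.6%), thymus tuft (69.1%) and non-tuft cells (89.8%). In gall bladder tuft cells Cacnb3 averaged 44.6% ± 20.5, against 32.0% ± 15.7 for Cacnb1 and 23.1% ± 26.0 for Cacnb4 (SD, n = 3). Its share ran from 23.5 to 64.5% over the gall bladder libraries. In trachea tuft cells Cacnb1 averaged 40.1% ± 20.5, against 36.4% ± 26.3 for Cacnb3 (SD, n = 4). The spreads overlap in both gall bladder and trachea.

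**Figure D3:**
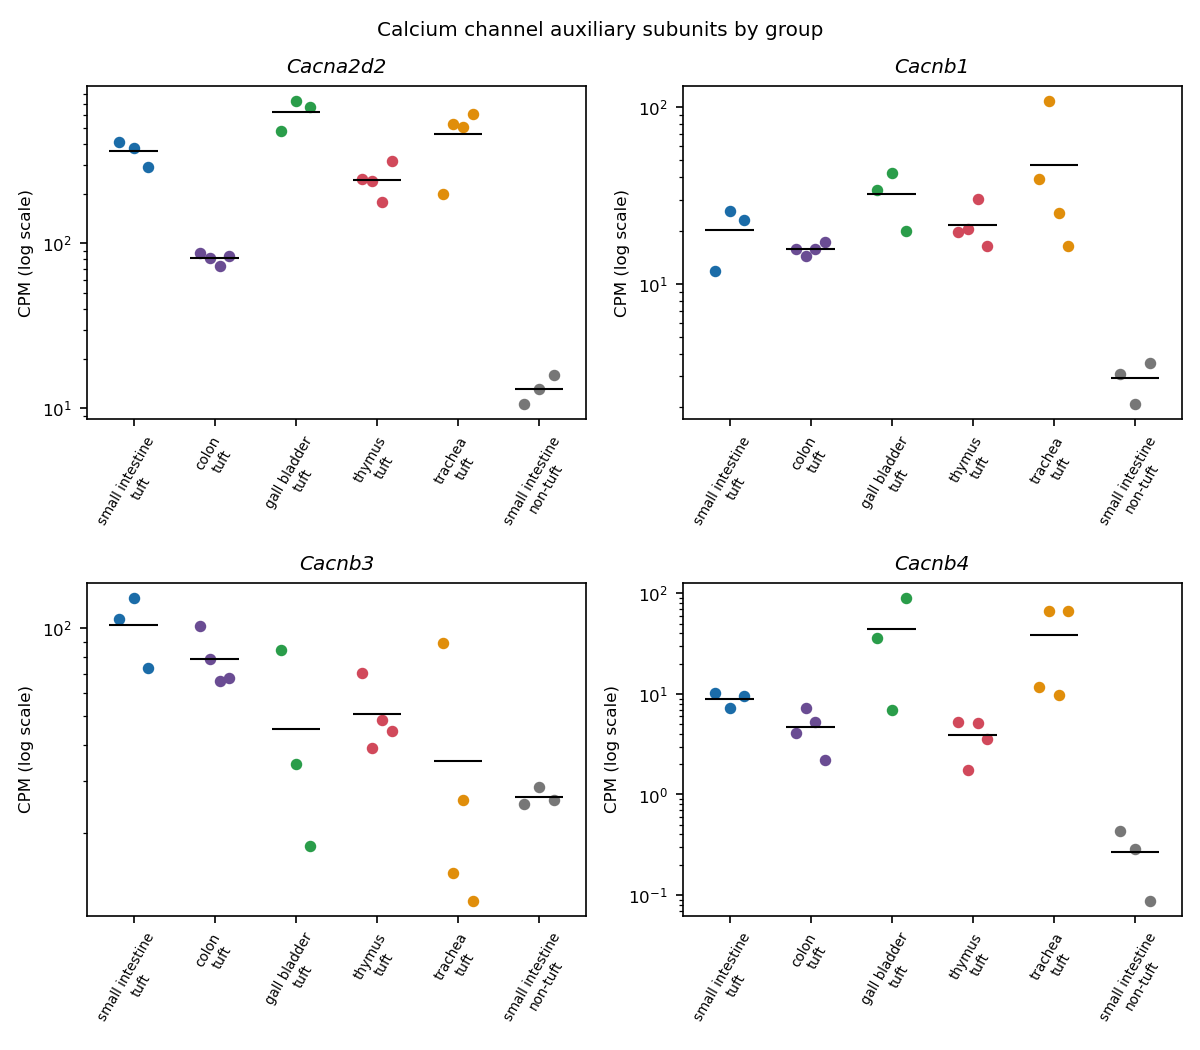
CPM of 4 calcium channel auxiliary subunit genes in each library (points, log axes) with group means (bars), tuft tissues first and non-tuft cells last. All tuft libraries lie above the non-tuft libraries for Cacna2d2, Cacnb1 and Cacnb4, while Cacnb3 overlaps in gall bladder and trachea.

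By mean share, Cacna1a led the alpha1 genes in non-tuft cells and in every tuft tissue except thymus, where Cacna1b led. Cacna1a made up 80.3% ± 1.87 of alpha1 RNA per kilobase in small intestine tuft, 64.8% ± 4.38 in colon, 88.1% ± 9.06 in gall bladder and 57.5% ± 20.8 in trachea tuft cells (SD over libraries). In thymus tuft cells it was 11.6% ± 1.93, and Cacna1b made up 56.0% ± 7.84. In non-tuft cells Cacna1a made up 47.9% ± 2.35 and Cacna1h 36.8% ± 0.761. The summed alpha1 level was 7.83 ± 1.49 CPM per kilobase in small intestine, 5.10 ± 0.857 in colon, 14.1 ± 4.87 in gall bladder, 17.6 ± 2.66 in thymus and 5.04 ± 2.45 in trachea tuft cells, and 9.41 ± 1.64 in non-tuft cells.

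**Figure D4:**
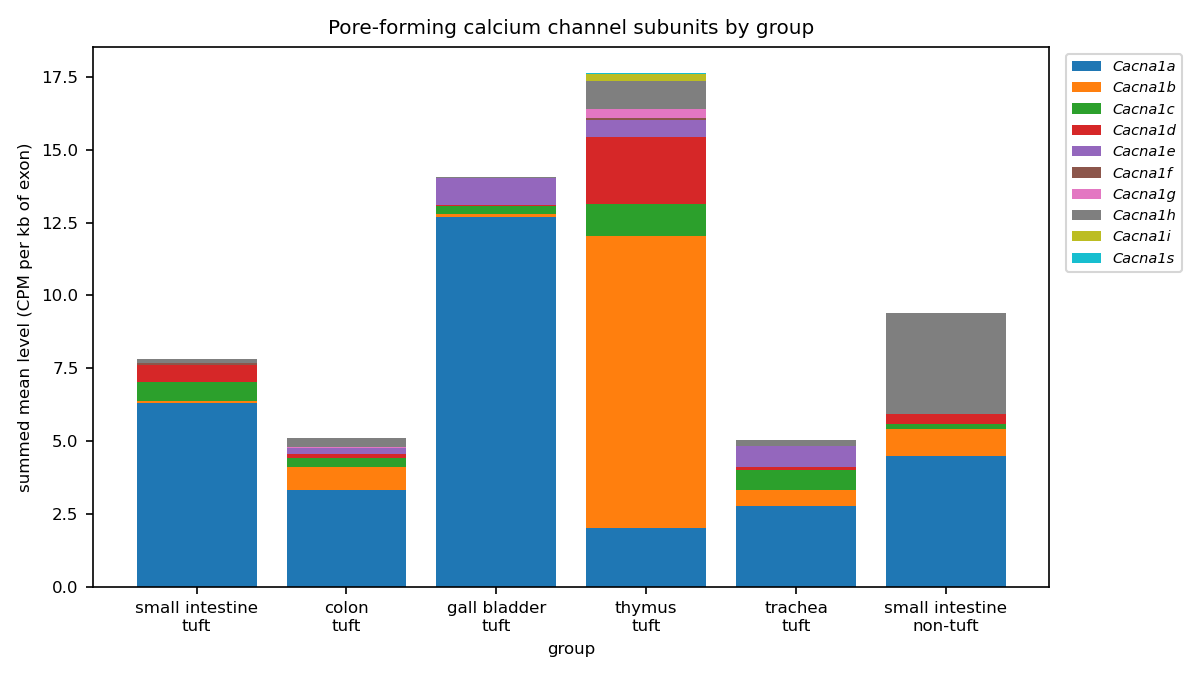
Stacked mean levels of the 10 pore-forming calcium channel genes by group, in CPM per kilobase of exon. Cacna1a fills most of the bar in every tuft tissue except thymus, where Cacna1b is the largest, and Cacna1h is large in non-tuft cells.

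Each tuft tissue was next set against the mean of the other 4. The 18 tuft libraries were fitted together, and 31 of the 40 channel genes were among the 19850 genes tested. The mean was taken over log2 levels with equal weight per tissue, so a gene can be called higher although a single other tissue exceeds it. Where a tissue had 3 counts or fewer of a gene, the fitted fold change depends on the prior count. Levels and adjusted p are then given alone, apart from the reversed values of Cacng5 and Scn2b in the last section.

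Gall bladder tuft cells were marked by the sodium channel pore Scn8a. The gene (ENSMUSG00000023033, chromosome 15, 100869858 to 101045938) was at 23.6, 11.4 and 45.2 CPM there. It was at 0.10 to 1.08 CPM in small intestine, 0.0372 to 0.0808 in colon, 0.589 to 4.91 in thymus and 0 to 0.0562 in trachea tuft libraries. The 3 gall bladder libraries stood above all 15 others, and Scn8a was the single channel gene called higher in gall bladder than in each other tuft tissue, a status met by 0.927% of all genes. The smallest of these differences was that from thymus, with a log2 fold change of 3.29 ± 1.05 (SE, adjusted p = 0.0236). The status was kept with 15 of 18 libraries left out in turn and lost without gall bladder replicate 4 or thymus replicate 2 or 4. Scn8a made up 99.2% ± 0.518 of sodium alpha RNA per kilobase in gall bladder (SD, n = 3), while no sodium beta gene averaged over 0.0422 CPM there.

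Against the mean of the other tuft tissues, 6 channel genes were called higher in gall bladder (Cacna1a, Cacna1e, Cacna2d2, Cacnb4, Scn8a and Cacng5), where 12.7% of all genes were, and 4 lower (Cacna1d, Scn2a, Scn3a and Scn2b), where 8.79% were. Cacna1a was at 214, 135 and 85.9 CPM in gall bladder, against group means of 71.9 in small intestine, 38.0 in colon, 23.0 in thymus and 31.6 in trachea (log2 fold change 1.93 ± 0.30, adjusted p = 0.000108). The lowest gall bladder library overlapped the highest of small intestine, at 88.0 CPM. Cacna1e, the R-type pore, was at 7.45, 19.7 and 45.1 CPM (2.59 ± 0.61, adjusted p = 0.00473), a call lost without gall bladder replicate 4, when the log2 fold change was 1.81. Cacnb4 likewise lost its call without that replicate, with a log2 fold change of 1.24 against 2.25 ± 0.56. Cacng5, a gamma protein, was found in 1 of the 3 libraries, at 2.11 CPM, and its call reversed without it. Cacna1d was at 0.203, 0.573 and 0.0784 CPM in gall bladder, below every library of small intestine, colon and thymus (log2 fold change -4.07 ± 0.95, adjusted p = 0.00433). Scn2a, Scn3a and Scn2b were at or below 0.152 CPM in all 3 gall bladder libraries, and each of these 3 calls was lost when any gall bladder library was left out (for Scn3a, with log2 fold changes of -4.34 to -5.88 against -4.73 ± 1.62). The median over all genes in this contrast was -0.19.

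Thymus tuft cells had the most channel genes at 1 CPM or more, 67.5% of the 40, near the 65.5% of all protein-coding genes there. At 5 CPM or more the shares were 42.5% and 50.1%. Against the mean of the other 4 tissues, 23 of the 31 tested were called higher, where 26.8% of all genes were, and 2 lower (Cacna1a and Cacnb4), where 5.64% were. The median log2 fold change of the 31 was 4.34, against 0.33 over all genes tested (0.43 with another scaling, that of DESeq2). Some of the 31 passed the count filter only through thymus libraries, such as Scn4b, with at most 3 counts in any other tuft library. Their high thymus folds follow in part from that filter, so the count and the median do not measure the family. Many of the 23 were scarce, and under a filter of 5 CPM in 3 libraries 12 were called. The share of all genes called under that filter is not given here, so the 12 cannot be set against the 26.8%. Leaving out a thymus library gave 17 to 20. They were 7 of the 9 calcium channel pores tested, 2 of the 4 alpha2delta genes, none of the 4 beta genes, 2 of the 2 gamma genes tested, and all 8 sodium channel pores tested with the 4 sodium beta genes.

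The sodium channel pores were the clearest case. Scn7a (ENSMUSG00000034810, chromosome 2, 66673425 to 66784914), an atypical sodium-sensing channel of glia and neurons, was at 13.7, 11.1, 10.5 and 17.1 CPM in thymus tuft libraries and at most 0.60 CPM in any other tuft library. Scn9a was at 11.04, 10.3, 11.8 and 1.75 CPM in thymus and at most 0.0808 CPM in the rest, with thymus replicate 4 well below the other 3. Scn4b, a sodium channel beta subunit, was at 2.68, 6.78, 3.88 and 9.40 CPM in thymus and at most 0.0606 CPM in the rest. For each gene the lowest thymus library stood above every library of the other tuft tissues. The adjusted p against the mean of the other tissues was 7.76e-06 for Scn7a, 2.42e-06 for Scn9a and 5.01e-06 for Scn4b.

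Scn2a, a pore of excitatory neurons, was at 13.0, 34.4, 10.1 and 6.08 CPM in thymus and reached 4.92 CPM in 1 trachea pool (adjusted p = 1.14e-06). Scn3a was at 10.1, 6.93, 4.63 and 11.8 CPM, and 1 trachea pool with 4.62 CPM lay just under the lowest thymus library (log2 fold change 3.92 ± 0.91, adjusted p = 0.00195). Scn8a was called higher in thymus on the log scale (adjusted p = 0.00271) although gall bladder averaged 26.7 ± 17.1 CPM and thymus 2.44 ± 2.10 CPM. Scn4a, the pore of skeletal muscle, and Scn11a, a pore of sensory neurons, were called at 2.20 CPM or less in every thymus library. Of the other beta subunits, Scn2b was called at 2.03 to 10.7 CPM and Scn3b at 1.35 to 5.86 CPM in thymus. The Scn2b call was lost without any single thymus library. Scn3a, Scn2a, Scn1a, Scn9a and Scn7a lie side by side on GRCm38 chromosome 2, between 65457118 and 66784914, and Scn1a, with a thymus mean of 0.621 CPM, was the 1 of these with too few counts to be tested. Summed over pores, sodium channel RNA was 6.53 ± 1.32 CPM per kilobase in thymus tuft cells, against 0.229 ± 0.0824 in small intestine, 0.383 ± 0.168 in colon, 1.71 ± 1.09 in gall bladder and 0.516 ± 0.465 in trachea tuft cells. Scn7a held 28.1% ± 7.39 of it and Scn2a 18.1% ± 11.3 (SD, n = 4).

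Among calcium channel pores, Cacna1b (ENSMUSG00000004113, chromosome 2, 24603887 to 24763152) was at 115, 70.9, 130.2 and 82.3 CPM in thymus. It reached 12.4 CPM in colon, 21.04 CPM in trachea pool 1 and at most 2.40 CPM in small intestine, gall bladder and the other trachea libraries. All 4 thymus libraries lay above every other library (log2 fold change 5.56 ± 0.83, adjusted p = 2.95e-05). Cacna1d (ENSMUSG00000015968, chromosome 14, 30039939 to 30491455) was at 31.1, 38.1, 27.5 and 20.1 CPM in thymus and at most 7.88 CPM in the rest (4.42 ± 0.56, adjusted p = 4.62e-06). Its antisense neighbour Chdh was lower in thymus, at 383 ± 30.8 CPM, than in small intestine tuft cells, at 859 ± 145 CPM (SD, n = 4 and 3). Cacna1h was at 11.1, 5.54, 5.47 and 15.7 CPM in thymus, above every other tuft library except trachea pool 1 at 8.15 CPM (3.24 ± 0.94, adjusted p = 0.011). Cacna1e averaged 14.7 CPM in thymus, 24.1 in gall bladder and 17.97 in trachea tuft cells, and its thymus call was lost without thymus replicate 1 (log2 fold change 1.49 against 1.90 ± 0.59). The T-type pores Cacna1g and Cacna1i and the L-type pore Cacna1f were called too, and no thymus library exceeded 7.24 CPM of any of them. Cacna1i was at 0.738, 7.24, 0 and 1.58 CPM in the thymus libraries.

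Cacna1a was called lower in thymus, at 20.3, 22.2, 26.2 and 23.4 CPM, with a log2 fold change of -1.24 ± 0.33 (adjusted p = 0.00554). Cacna1c was not called in any tissue against the others, at 31.5, 16.1, 17.1 and 26.7 CPM in thymus and between 0 and 56.9 CPM in trachea libraries. Cacnb4 was called lower in thymus, and lost the call without thymus replicate 2 or 4 (log2 fold changes -1.81 and -1.87 against -1.92 ± 0.66). The alpha2delta gene Cacna2d4 ranged between 0 and 8.25 CPM within thymus, and Cacna2d3 stayed at or under 1.07 CPM, and both calls were lost without thymus replicate 1 or 3. Cacna2d1 was not called in any tissue against the others, at 5.26 to 14.8 CPM in thymus and 2.50 to 22.3 CPM in trachea libraries. The gamma gene Cacng7 was at 12.2, 4.60, 0.0564 and 0 CPM in thymus and was not tested. Cacng4 was at 1.10 to 2.63 CPM in thymus and at most 0.225 CPM in the other tuft libraries, and the remaining 6 gamma genes averaged under 1 CPM in every group.

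Cacna1b, Cacna1i, Scn2a, Scn4b, Scn7a and Scn9a (6) were called higher in thymus than in each other tuft tissue, a status met by 6.19% of all genes. Cacna1i, Scn4b, Scn7a and Scn9a passed the count filter only through thymus libraries. Their highest counts in another tuft library were 1, 3, 17 and 4. Their status, and its keeping when libraries are left out, follow in part from that filter, so the 6 do not measure the family. Scn4b, Scn7a and Scn9a kept the status with any of the 18 libraries left out. Cacna1b kept it in 12 of 18 such fits, Cacna1i, which had no count in thymus replicate 3, in 9 and Scn2a in 4. Cacna1b lost it without thymus replicate 1 or 3 or any colon library, and 4 channel genes in all were then restricted to a single tissue without thymus replicate 1, thymus replicate 2 or gall bladder replicate 4, against 7 with all libraries. Among all genes 10.6% had such a status in some tissue. No channel gene had it in small intestine, colon or trachea, where 1.03%, 0.62% and 1.82% of all genes did.

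Other markers were high in thymus libraries too. All 10 medullary thymic epithelium markers tested were called higher there, with 11 of 13 muscle, 6 of 10 neuron, 12 of 21 enteroendocrine, 7 of 12 myeloid and mast cell, 8 of 9 endothelium and fibroblast, and 6 of 9 thymocyte and T cell markers, where 26.8% of all genes were higher. Summed neuron markers were 67.0 to 125 CPM in thymus libraries, against 261 to 417 CPM in gall bladder and 96.4 to 124 CPM in small intestine tuft libraries. In gall bladder 2 of the 10 neuron markers tested were called higher (Nefl and Ret) and 1 lower. The median log2 fold change of the 10 was -2.13 there and 3.81 in thymus. Summed muscle markers were 255 to 410 CPM in thymus and at most 191 CPM in any other tuft library. The part of other cell types in the thymus results was not tested.

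**Figure D5:**
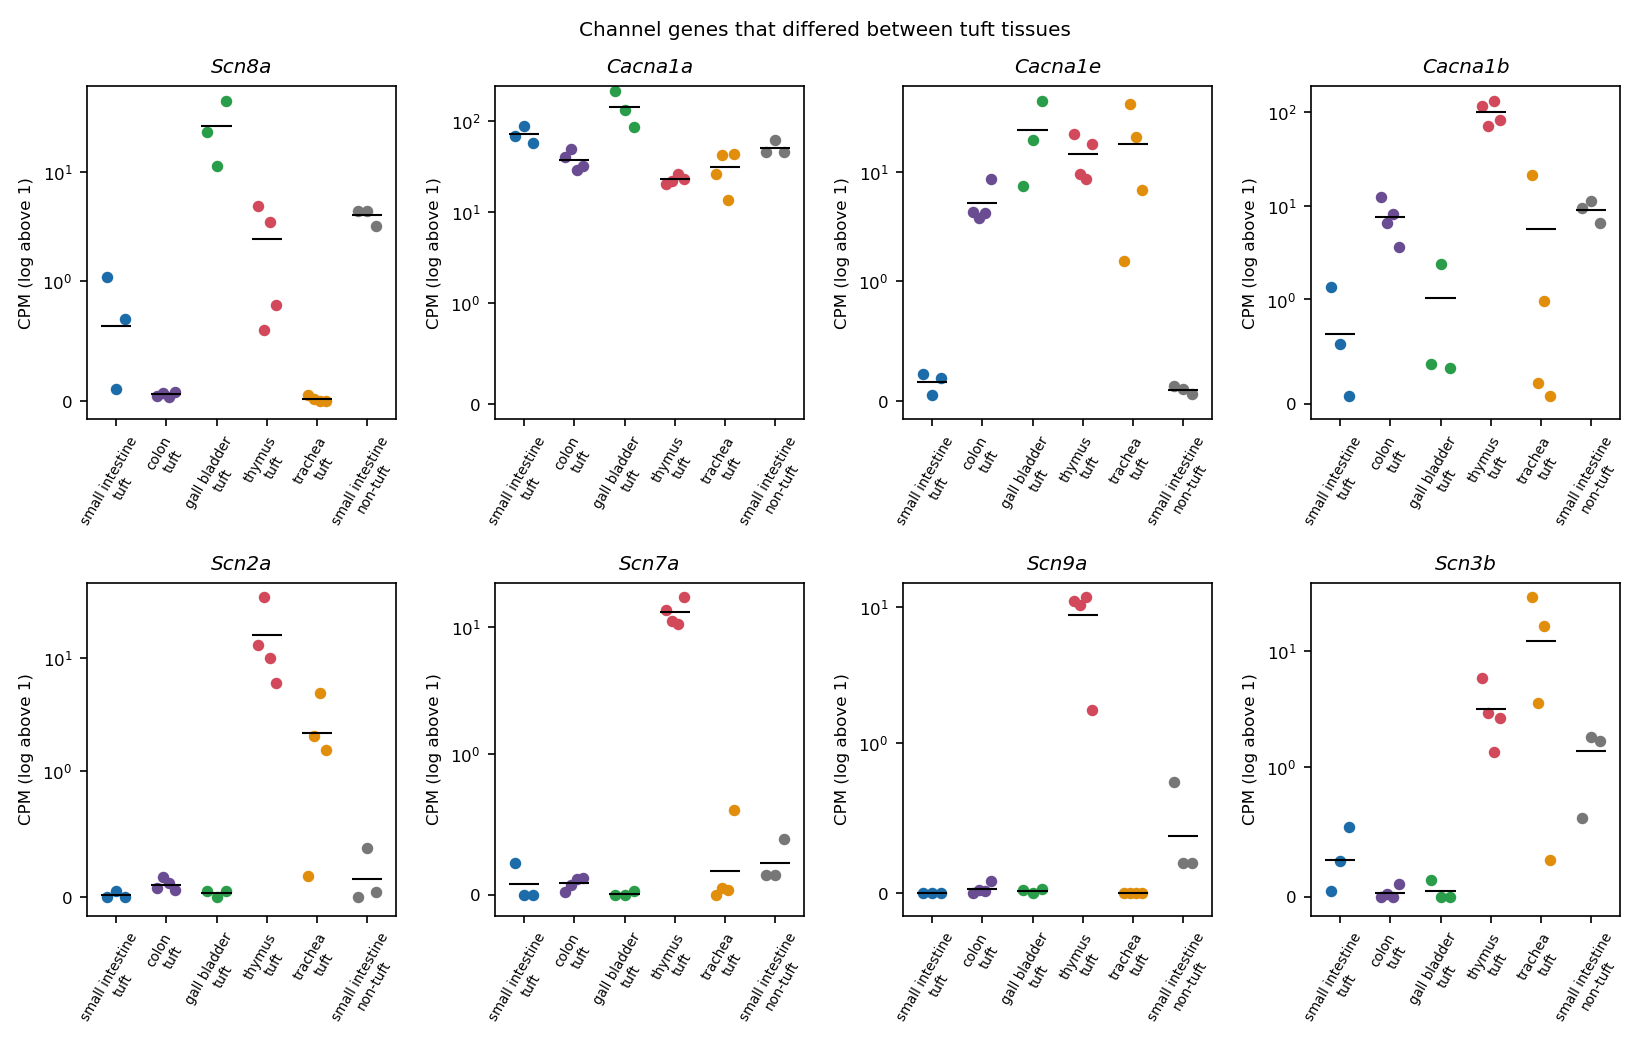
CPM in each library (points, axes linear below 1 CPM and log above) with group means (bars) for 8 channel genes that differed between tuft tissues. Scn8a is high in gall bladder, and Cacna1b, Scn2a, Scn7a and Scn9a in thymus, where 3 of the 4 Scn9a values lie between 10.3 and 11.8 CPM.

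Trachea tuft cells, from pools of 130 to 453 sorted cells, had 7 channel genes called higher than the mean of the other tuft tissues, where 17.3% of all genes were, and 2 lower, where 13.7% were. The most distinct was Scn3b, a sodium channel beta subunit, at 28.9, 3.60, 16.5 and 0.282 CPM (log2 fold change 5.92 ± 0.98, adjusted p = 0.00012). These 4 pools spread widely: pool 2 lay within and pool 4 below the thymus range of 1.35 to 5.86 CPM. Scn2b was found in pool 3, at 32.7 CPM, and at 0 to 0.0562 CPM in the other 3 pools, and the direction of its call reversed without pool 3. Cacnb4 was called higher (2.07 ± 0.52, adjusted p = 0.00496). Cacnb1 lost its call without pool 2, which had 108 CPM (log2 fold change 0.30 against 1.06 ± 0.38). Cacna1e, at 1.52, 42.4, 21.1 and 6.81 CPM, lost its call without the same pool (1.27 against 2.08 ± 0.58). Cacnb2, at 9.89, 0.141, 2.32 and 15.8 CPM, lost its call without pool 4 (log2 fold change 2.74, against 3.60 with all) and without both female pools (3.07). Scn2a was called higher at 0.169 to 4.92 CPM (adjusted p = 0.00131). Scn8a was called lower, at 0.0562, 0.0157, 0 and 0 CPM (adjusted p = 0.000649), and so was Cacng4, which had no count in trachea (adjusted p = 0.042) and lost the call without any single trachea pool. Pools 3 and 4 differed from pools 1 and 2 in sex, and pools 2, 3 and 4 from pool 1 in age.

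In colon tuft cells, edgeR's quasi-likelihood test called 0 of 31 channel genes higher, where 10.7% of all genes were, and 3 lower (Cacna2d2, Scn8a and Scn3b), where 5.78% were. At an unadjusted p under 0.05, 2 were higher (Cacna2d4 and Scn11a), and DESeq2 and limma voom called 0. Without trachea pool 3, 2 were called higher, and 1 without trachea pool 1. The Scn3b libraries of colon lay between 0 and 0.101 CPM, and the call (log2 fold change -4.69 ± 1.48, adjusted p = 0.0318) was lost without colon replicate 1, 2 or 3 (-4.32, -4.56 and -4.29) or gall bladder replicate 1 (-3.68).

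Small intestine tuft cells had 2 channel genes called higher than the mean of the other tuft tissues (Cacna1d and Cacna1f), where 10% of all genes were. Another 2 were called lower (Cacna1e and Scn2a), where 7.45% were, with a median of -0.14 over all genes. Cacna1e was at 0.226, 0.05 and 0.196 CPM there, below all 15 other tuft libraries, of which the lowest had 1.52 CPM (log2 fold change -6.42 ± 1.13, adjusted p = 0.000337). The same gene was called higher than in non-tuft cells in colon (5.74 ± 1.09), gall bladder (7.95 ± 1.21), thymus (7.23 ± 1.16) and trachea (7.53 ± 1.18) but not in small intestine, where non-tuft libraries had 0.0583 to 0.126 CPM. Cacna1d was called higher at 7.22, 7.88 and 7.48 CPM (1.81 ± 0.61, adjusted p = 0.045), although thymus tuft cells averaged more, at 29.2 CPM. The call was lost without any small intestine or thymus library or colon replicate 1, 3 or 4, with log2 fold changes of 1.76 to 1.90. Cacna1f was called at a mean of 0.539 CPM in small intestine, while thymus averaged 0.768 CPM. The Cacna1f call was lost without small intestine replicate 4.

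The channels' partners were read from 4 lists. Of channel regulators, 6 of 22 tested were called higher and 5 lower in small intestine tuft than in non-tuft cells, a contrast in which 13% of all genes were higher and 13.9% lower. Cabp1, a calcium-binding regulator of calcium channels, averaged 44.5 ± 15.7 CPM in tuft cells, against 0.432 CPM in non-tuft cells (log2 fold change 6.75 ± 0.36), and the scaffold Ank2 averaged 38.1 ± 20.8 and 1.21 CPM (4.98 ± 0.73). Fgf14, which binds sodium channels, and Gem, a GTPase that lowers calcium current, were lower, at 0.317 and 1.05 CPM in tuft and 5.46 and 10.0 CPM in non-tuft cells. Of calcium store and pump genes, 5 of 18 were higher and 2 lower, among them the store release channel Itpr2 (633 ± 53.0 CPM in tuft cells, against 26.8 CPM in non-tuft cells) and the calcium pump Atp2b2 (136 ± 12.8 and 1.57 CPM). Of genes that depolarise the cell or signal to Trpm5, 7 of 12 were higher and 2 lower, with Trpm5 at 4868 ± 668 CPM in tuft cells, against 43.3 CPM in non-tuft cells (6.87 ± 0.38). Of exocytosis genes, which act where calcium channels trigger release, 2 of 15 were higher and 6 lower. The active-zone genes Rimbp2 and Pclo were at 0.511 and 2.73 CPM in tuft, against 14.9 and 34.8 CPM in non-tuft cells, and Unc13d, a granule release gene, was at 26.9 CPM in tuft cells, against 2.44 CPM in non-tuft cells.

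Between tuft tissues, gall bladder had 8 of 27 regulators called higher and none lower, and 4 of 17 exocytosis genes higher and 3 lower, where 12.7% and 8.79% of all genes were higher and lower. Rims2, an active-zone scaffold that binds calcium channels, averaged 346 ± 62.0 CPM in gall bladder and 12.0 to 32.5 CPM in the other tuft tissues (log2 fold change 4.23 ± 0.50), while Bsn, another active-zone gene, was lower, at 0.102 CPM in gall bladder and 4.62 to 29.6 CPM in the others (-6.71 ± 1.31). Ank2 averaged 142 ± 42.8 CPM against 4.32 to 38.1 CPM (3.22 ± 0.50). Thymus had 11 of 27 regulators higher and 2 lower, and 7 of 17 exocytosis genes higher and 1 lower, where 26.8% of all genes were higher and 5.64% lower. The release sensor Syt1 averaged 129 ± 14.8 CPM in thymus and 0.0861 to 30.2 CPM in the other tuft tissues (6.37 ± 0.44). In trachea, 3 of 27 regulators were higher and 5 lower, and 3 of 17 exocytosis genes were higher and 5 lower, where 17.3% of all genes were higher and 13.7% lower. Cbarp, which inhibits calcium channels through their beta subunits, averaged 89.2 ± 46.0 CPM in trachea, against 2.33 to 58.9 CPM in the other tuft tissues (2.37 ± 0.27). In colon, none of the 27 regulators was higher and 5 were lower (10.7% and 5.78% of all genes), and in small intestine 2 were higher and 2 lower (10% and 7.45%). Of 16 genes that depolarise or signal to Trpm5, 10 were higher and 2 lower in thymus, and 6 and 2 in trachea. The counts were 3 and 3 in gall bladder, 1 and 6 in colon, and 3 and 4 in small intestine. Of 21 calcium store and pump genes, 9 were higher and 3 lower in thymus, 5 and 3 in trachea, and 4 and 3 in gall bladder. They were 1 and 2 in colon and 3 and 1 in small intestine. Exocytosis genes were 3 and 2 in colon and 2 and 2 in small intestine.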

How the data were processed

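RNA was measured in 21 libraries of sorted cells. The authors deposited whole-number counts per Ensembl gene identifier, 1 file per library, with no normalization. Per the submitters' processing notes, STAR, DESeq2 and GRCm38 were used; the sources used here do not give versions, the counting step or use of strand. Per the labels' protocols, poly(A) RNA was amplified before library preparation and no molecular identifiers are mentioned, so error from few cells and from amplification is part of the spread.

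Of 43432 identifiers, 42548 matched GENCODE M21, and the 884 others held 0.0986% of counts. Counts were scaled by TMM and tested by edgeR's quasi-likelihood test (edgeR 4.0.16, limma 3.58.1, R 4.3.3) after filterByExpr, with Benjamini-Hochberg adjustment over all genes tested. Calls needed an adjusted p below 0.05 with a log2 fold change of 1 or more in size. The fits were of 6 small intestine libraries, 18 tuft libraries, and all 21. CPM per kilobase used the merged exon length. The pipeline was tested on simulated data. Alternatives were DESeq2 1.42.0, DESeq2's (RLE) size factors, limma voom with sample weights, no filter on low counts, a filter of 5 CPM in 3 libraries, a replicate block, leaving out each library or the female trachea pools, and all 21 libraries in 1 fit. No pair of libraries agreed within sampling noise (smallest chi-square per gene 35.3). Each library is 1 mouse, or 1 pool of 4 for trachea.

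All 40 channel genes entered the fits and counts, and those at 5 CPM or called are described with values, except that a few genes are not reported here, and up to 4 called genes per partner list with the largest fold change could be named. The genes and lists were chosen with earlier results of these data known.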

Additional observations from a re-analysis of the deposited data

Results flagged for a closer look

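Of 56 tests for a single library far from the other 3 of its group, over channel genes with a mean of 1 CPM or more in the groups of 4, 8 found one. The cutoff gives about 5%, or 1 in 20, by chance for normally distributed values. These CPM are skewed and the tests share libraries, so the 8 of 56 cannot be read against that rate. In colon, Cacna1e was at 8.60 CPM in replicate 4 (others 3.75 to 4.26), and replicate 2 had 3.14 CPM of Cacna2d1 (others 0.502 to 0.625) and 8.89 CPM of Cacna2d4 (others 0 to 0.185). In thymus, Scn9a was at 1.75 CPM in replicate 4 (others 10.3 to 11.8). In trachea, pool 1 had 21.04 CPM of Cacna1b (others 0.0706 to 0.989) and 8.15 CPM of Cacna1h (others 0.0314 to 0.0618). Pool 2 had 56.9 CPM of Cacna1c (others 0 to 1.30). Pool 3 had 32.7 CPM of Scn2b (others 0 to 0.0562). Trachea, with the fewest cells sorted per library, held 4 of the 8.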

How the results depend on the processing

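The counts below are of channel genes alone. Shares of all genes called under each alternative are not given here, so a changed count is not a change particular to these genes. In small intestine tuft against non-tuft cells, 6 genes were called higher and 7 lower, and 3 and 2 when all 21 libraries set the spread. For each tuft tissue against the others, DESeq2 gave 4 lower in small intestine, 6 in colon, 10 in gall bladder and 5 in trachea. With limma voom, small intestine had 4 higher and 7 lower, colon 7 lower, gall bladder 1 lower, thymus 1 lower, trachea 2 higher and 1 lower, and 12 genes were restricted to a single tissue. RLE size factors gave 1 higher in small intestine. With no filter on low counts, small intestine had 1 higher, gall bladder 2 lower and trachea 1 lower. The filter of 5 CPM in 3 libraries, which tests fewer genes, gave 1 higher in small intestine, 12 in thymus and 1 lower in trachea. Without the female trachea pools, colon had 2 higher and gall bladder 9 lower. With the replicate block, gall bladder and thymus each had 1 lower, 16 of 64 single-gene calls were lost, and the numbers did not meet the rule for pairing, which needs every same-number correlation over 0.1 (-0.110 and -0.0235 between small intestine groups, -0.0741 to 0.194 between tuft tissues). Small intestine and colon pairs were at 0.141, 0.0715 and 0.0798, and 10 of 18 tuft libraries were closest to a same-numbered library of another tissue. Between tuft tissues, 32 pairs shared a number (median correlation 0.0200) and 97 did not (median -0.00417). Missing the rule does not show the libraries to be unpaired, and the main fits took no account of the numbers. Leaving out 1 library gave 6 to 7 higher and 6 to 11 lower in small intestine against non-tuft cells, and 2 to 3 higher in all 5 tissues. Against the other tuft tissues it gave 0 to 3 higher and 1 to 3 lower in small intestine, 0 to 2 and 2 to 4 in colon, 4 to 6 and 1 to 8 in gall bladder, 17 to 28 and 1 to 2 in thymus, and 6 to 9 and 1 to 5 in trachea, with 4 to 7 restricted genes. Of single-gene values in those fits, 889 kept their call, 94 lost it and 2 reversed. Both reversed values involve tissues with 3 counts or fewer of the gene and depend on the prior count. The fitted log2 fold change of Cacng5 in gall bladder ran from -2.63, without replicate 3, to 5.99. That of Scn2b in trachea ran from -5.00, without pool 3, to 4.39, and was -4.56 without the female pools and -2.56 with limma voom. The cause of these changes was not tested. Counts at the level of a few reads and libraries from few cells limit what can be said of genes under 1 CPM.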
